A study of Mus musculus with 12 samples.

Results

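The comparison described here set the pineal gland of Crx-/- mice against that of control mice in the light phase, at Zeitgeber time 6 (ZT6), the hour counted from lights on. Its members were the 3 arrays titled Crx-/- at ZT6 and the 3 titled control at ZT6, of 12 Affymetrix mouse genome arrays in all, and every one of the 45037 probe sets outside the array's own control features was tested. Both groups were whole glands taken from animals of both genders older than 2 months, kept in 12 h of light and 12 h of dark, killed with CO2, and labelled biological replicates. The Crx-/- ZT6 group carried the Crx-/- genotype and the control ZT6 group was labelled control. Each array is described as the gland of a single mouse, and both genotypes are labelled strain 129sv; the part of Crx that was deleted is not given in the sources used here. P-values measure the spread between these mice. The other 6 arrays, Crx-/- and control glands taken in the dark at ZT20, are used only beside the ZT6 values.

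Crx is a homeodomain transcription factor of the Otx family that binds short motifs around the letters TAATCC. In retinal photoreceptors it switches on the genes of light detection. The mammalian pinealocyte shares its descent with the photoreceptor, keeps many photoreceptor transcripts although it senses no light itself, and makes melatonin from serotonin at night when noradrenaline raises its cyclic AMP.

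Levels below are log2 of the quantile normalized array signal plus 3.7. Changes are Crx-/- minus control on that scale, given with the standard error of the fit (n = 3 arrays a group), and p-values come from limma, adjusted over all 45037 probe sets. Since an offset was added, changes of dim genes are understated. Where any array of the dimmer group lay at or below the array background, set by 27 bacterial control probe sets, a bound is given as "at least", and the fitted change printed beside it is no bound. The bound allows only for the floor of the dimmer group and takes the mean of the brighter group as it is. It can therefore lie above the change seen without a bright array that stands apart. Array signals are compared within a gene only. A gene is said to have risen or fallen when its adjusted p was under 0.05.

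Of 18193 genes, 5208 (28.6%) passed at ZT6, of which 2972 (16.3%) rose and 2236 (12.3%) fell in Crx-/- glands, and 1032 (5.67%) rose and 704 (3.87%) fell by 1 or more on the log2 scale. These shares are the background against which each group of genes below is read. When the values of all probe sets of a gene were averaged, 2340 genes rose and 2471 fell, so the excess of rises depended on which probe set stood for a gene. Most changes were small: 708 of the rises and 723 of the falls were under 0.5, with median sizes of 0.79 and 0.67. The median change over all genes was 0.04, and the groups did not overlap in 44.6% of genes. Among the 100 genes brightest in control glands, 18 fell, 1 rose and none changed by as much as 1. Of the genes at background on all 3 control arrays, 58 were called higher and lay above background on all 3 Crx-/- arrays, and 49 genes went the opposite way.

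**Figure D1:**
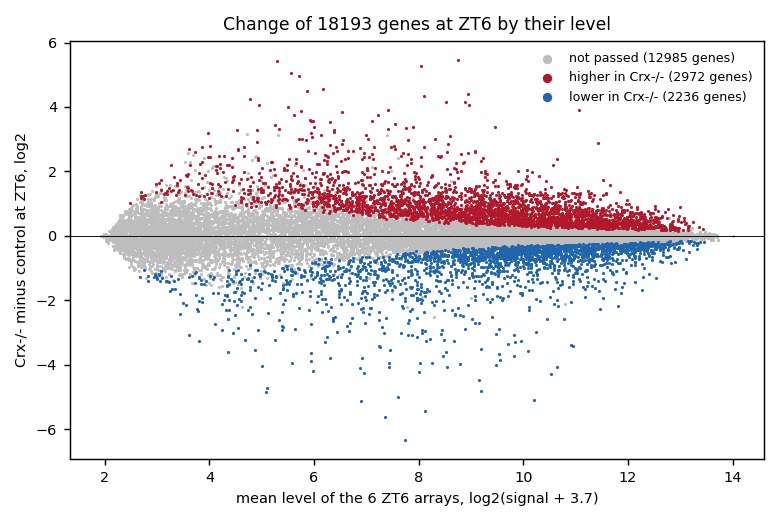
Change at ZT6 (Crx-/- minus control, log2, vertical axis) of each of 18193 genes against its mean level on the 6 ZT6 arrays (log2 of signal plus 3.7, horizontal axis). Red points are the 2972 genes called higher in Crx-/- glands, blue points the 2236 called lower and grey points those that did not pass. Changes of 3 or more are spread over dim and middle levels, and the brightest genes lie close to 0.

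Tph1, Ddc, Crx and Otx2, as well as Sag (arrestin) and Rbp3 (a retinoid carrier of photoreceptors), lay above background on all 6 arrays, whereas the photoreceptor calcium sensor Rcvrn lay at background on most. One Crx probe set read 12.71, 12.90 and 12.60 on the Crx-/- arrays, against 12.73, 12.70 and 12.79 on the control arrays, a change of -0.00 ± 0.08, adjusted p = 0.995. The second read 10.51, 10.60 and 10.44 on the Crx-/- arrays, against 11.29, 11.15 and 11.18 on the control arrays (-0.69 ± 0.08, adjusted p = 0.000421). Transcript from the Crx locus was therefore still measured in Crx-/- glands, and the signal at 1 of 2 probe sets fell; neither probe set checks the genotype unless it lies in the deleted part.

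Arrays of the same group correlated at 0.979 to 0.985 across probe sets and arrays of different groups at 0.960 to 0.968. The 5' to 3' signal ratio of actin was 0.169 to 0.219 on Crx-/- arrays, against 0.248 to 0.283 on control arrays, and that of Gapdh was 0.459 to 0.548, against 0.590 to 0.636 (exact permutation test, two-sided p = 0.1 for each, the smallest that 3 arrays against 3 allow). The part of this difference in the results was not tested. Markers of glia, vessels and connective tissue also moved with genotype and are given beside the groups they touch. Within the Crx-/- group, replicate 3 read at least 1 log2 unit above both other arrays in 5 of 16 brain and habenular neuron markers above background (31.2%), against 149 of 14749 genes overall (1.01%). That array also did so in 3 of 9 GABA-A subunits, 3 of 14 ionotropic glutamate receptors and 2 of 11 sodium and HCN channels. It did so in 7 of 47 potassium channels, 8 of 56 calcium handling genes and 5 of 33 proteoglycans. Among collagens it did so in 0 of 39 and among homeobox genes outside the Hox clusters in 0 of 69. Within the control group, replicate 3 did so in 20 of 59 interferon response genes (33.9%), against 240 of 14749 (1.63%). Beside the genes named below in which either array stood out, the change without it is given. Arrays were left out one at a time, and counts that moved by over 1.5 times then, with signals as deposited, or without the variance trend of the limma fit are given beside the count, for counts of 3 or more. Of 4 genes that differ by sex none passed, but their summed signal was 7281 to 9634 on Crx-/- arrays, against 10068 to 10528 on control arrays, and their median change of -1.83 was -0.004 without Crx-/- replicate 1 and -3.06 without Crx-/- replicate 3. The labels give animals of both genders, and the part of sex in the results was not tested.

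The genes of light detection fell more often than genes at large. Of 33 phototransduction genes 16 fell and 2 rose, with a median change of -0.42, and of 26 genes of photoreceptor structure and the retinoid cycle 10 fell and 4 rose (median -0.34). In a whole gland, fewer cells of a type and less RNA per cell cannot be told apart. The letters that Crx is known to bind are shown first for the genes that fell. RefSeq's promoter table (GRCm38.p6, 300 bases around the start of each gene) was searched on both strands for TAATCC and, as a second homeodomain motif of like core, for TAATTA. The first motif was found in the first listed promoter of 8 of 19 photoreceptor genes that fell (42.1%), of 6 of 23 that did not pass (26.1%) and of 1 of 4 that rose, against 6.03% of 14452 genes on the array. TAATTA was in 0 of the 19 and in 3.29% of the array's genes. Over all genes the shares with TAATCC were 7.83% of 1788 that fell, 4.61% of 2300 that rose and 6.04% of 10364 that did not pass. These counts are descriptions; a match in a short window is not a bound site.

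The sites in the genes that fell are printed with 10 bases on each side, 5′ to 3′ on the strand that reads TAATCC, with the motif in capitals; each lies within 124 bases before the start of its gene, and Cngb1 has 2.
Ppef2 chr5:92256387-92256412 (minus strand): acacgcctccTAATCCacaagagtaa
Gnat2 chr3:108093037-108093062 (minus strand): agctccttccTAATCCggggattgtc
Rpe65 chr3:159599129-159599154 (minus strand): gtatgcaatcTAATCCttattggagg
Gngt1 chr6:3993954-3993979 (minus strand): agcttcttcaTAATCCcccctaatat
Gucy2e chr11:69237049-69237074 (plus strand): ctgcagccctTAATCCctccaagccg
Gnb5 chr9:75306272-75306297 (minus strand): attggtcaccTAATCCcttttatctg
Cngb1 chr8:95306628-95306653 (minus strand): ctgcacatgcTAATCCtttgcacccg
Cngb1 chr8:95306595-95306620 (minus strand): tagtgccaatTAATCCtggctgggtc
Guca1a chr17:47400648-47400673 (plus strand): tgcagtctgcTAATCCcttcttaaca

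Whole promoters are printed for Ppef2, with its single match in capitals, and for Slc24a1, the phototransduction gene that fell most, with none. The promoters of Nxnl1 and Mpp4, photoreceptor genes that also fell strongly, held none either. Both printed promoters are given on the minus strand, which is the strand of the gene.
Ppef2 chr5:92256229-92256528: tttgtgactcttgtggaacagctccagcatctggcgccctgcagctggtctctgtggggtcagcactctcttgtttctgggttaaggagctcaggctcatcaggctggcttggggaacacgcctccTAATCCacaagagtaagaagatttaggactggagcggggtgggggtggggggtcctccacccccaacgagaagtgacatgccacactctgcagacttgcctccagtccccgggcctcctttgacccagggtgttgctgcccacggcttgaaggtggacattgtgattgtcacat
Slc24a1 chr9:64951571-64951870: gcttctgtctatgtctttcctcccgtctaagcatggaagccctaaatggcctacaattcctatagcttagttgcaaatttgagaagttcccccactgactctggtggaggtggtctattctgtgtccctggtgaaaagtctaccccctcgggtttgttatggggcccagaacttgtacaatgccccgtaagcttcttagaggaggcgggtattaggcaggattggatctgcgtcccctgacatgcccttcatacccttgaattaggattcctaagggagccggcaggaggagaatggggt

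Slc24a1, which encodes the sodium/calcium, potassium exchanger of the rod outer segment, read 7.02, 6.84 and 6.30 on the Crx-/- arrays, against 10.40, 10.28 and 10.30 on the control arrays (-3.61 ± 0.19, adjusted p = 4.92e-06), a level 12.2-fold lower in Crx-/- glands. Ppef2, a calcium-binding phosphatase of photoreceptors, read 6.41, 6.82 and 5.995 on the Crx-/- arrays, against 9.46, 9.41 and 9.75 on the control arrays (-3.13 ± 0.22, adjusted p = 2.45e-05). In both genes every Crx-/- array lay more than 2 log2 units below every control array. The cone opsin Opn1sw read 6.62, 6.05 and 5.95 on the Crx-/- arrays, against 8.30, 8.33 and 7.68 on the control arrays (-1.89 ± 0.26, adjusted p = 0.000889), and Pde6a, a rod phosphodiesterase subunit, was near background in both groups, with a bound of at least 1.53-fold lower. G protein subunits were lower too: the transducin subunit Gnat2 changed by -1.59, Gngt1 by -1.44 and Gnb5, the partner of the Rgs9 complex, by -1.10. Gucy2e and Guca1a, a guanylate cyclase and its activator, changed by -1.20 and -0.42, and the channel subunit Cngb1 by -0.59. Rpe65, the isomerase of the retinoid cycle, was at least 1.89-fold lower. The 2 phototransduction genes that rose were Opn3, an extraocular opsin (1.19), and the cone channel subunit Cngb3 (0.87). Gnb1, the brightest of those that did not pass, changed by -0.10 ± 0.05, adjusted p = 0.199, and Sag by -0.03 ± 0.09, adjusted p = 0.878. The call was lost for Gucy2e without Crx-/- replicate 1 or 3 or control replicate 1, 2 or 3 (adjusted p up to 0.105), for Guca1a without Crx-/- replicate 2 or 3 or control replicate 1 or 2 (adjusted p up to 0.145) and for Cngb1 without Crx-/- replicate 3 or control replicate 1 or 3 (adjusted p up to 0.094).

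Among genes of photoreceptor structure, Nxnl1, whose product is known as a rod-derived cone viability factor, read 4.40, 4.76 and 4.87 on the Crx-/- arrays, against 7.87, 7.74 and 7.86 on the control arrays (-3.15 ± 0.23, adjusted p = 2.76e-05). Mpp4, a scaffold of the photoreceptor terminal, read 10.68, 10.83 and 10.62 on the Crx-/- arrays, against 12.96, 12.92 and 12.79 on the control arrays (-2.18 ± 0.08, adjusted p = 8.37e-07). Both groups were tight and far apart in these genes. Gpr143 stands in this list but encodes a receptor of pigment granules, not a part of the photoreceptor. It was scattered, with 4.50, 2.42 and 5.43 on the Crx-/- arrays, against 7.71, 7.59 and 7.96 on the control arrays, a level at least 8.09-fold lower. Of the outer segment, Tulp1 changed by -1.68, Rom1 by -1.41 and Prph2 by -1.11, all lower. Impg1, a proteoglycan of the matrix between photoreceptors, went the other way with 8.10, 8.08 and 7.82 on the Crx-/- arrays, against 4.45, 4.76 and 5.07 on the control arrays (3.24 ± 0.24, adjusted p = 3.2e-05), as did Rp1 (at least 1.49-fold higher), Stra6 (1.09) and Abca4 (0.65). Rbp3 stayed bright in both groups and did not pass (0.06 ± 0.05, adjusted p = 0.504). Calls did not hold for Prph2 without Crx-/- replicate 2 or 3 or control replicate 1 or 2 (adjusted p up to 0.0993) and for Rp1 without Crx-/- replicate 2 or control replicate 2 (adjusted p up to 0.0569).

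Synaptic ribbons occur in photoreceptors and in pinealocytes, and 7 of 21 ribbon synapse genes fell while 4 rose (median -0.17). Lrit1, a leucine-rich repeat protein of photoreceptor synapses, read 8.47, 8.06 and 8.37 on the Crx-/- arrays, against 11.93, 11.75 and 11.96 on the control arrays (-3.58 ± 0.12, adjusted p = 7.34e-07). Its relative Lrit2 changed by -1.60 ± 0.20, adjusted p = 0.000595 and Egflam, which encodes pikachurin, by -1.55 ± 0.16, adjusted p = 0.000195. Rimbp2, an active zone protein that binds calcium channels, read 9.11, 8.96 and 9.16 on the Crx-/- arrays, against 6.07, 5.46 and 5.71 on the control arrays (3.33 ± 0.20, adjusted p = 1.01e-05) and was higher. The ribbon syntaxin Stx3 did not pass (-0.17 ± 0.06, adjusted p = 0.0617). The 4 rises among ribbon synapse genes became 2 without Crx-/- replicate 1 and 2 without a variance trend.

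Transport along the cilium, from which the outer segment is built, shifted by less. Of 44 genes of intraflagellar transport and the BBSome, the coat that moves membrane proteins in cilia, 15 fell and 1, Ift57, rose (0.41), none by as much as 1, with a median of -0.16. Kif3c changed by -0.96 ± 0.12, adjusted p = 0.000626, Bbs4 by -0.70 ± 0.08, adjusted p = 0.000303 and Bbs1 by -0.68 ± 0.08, adjusted p = 0.000387. The 15 falls among cilium genes became 9 without control replicate 2, 4 with signals as deposited and 6 without a variance trend. Ift57 was not called without Crx-/- replicate 2 or control replicate 1 or 3 (adjusted p up to 0.0878).

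Of 16 genes of serotonin and melatonin synthesis 7 fell and 3 rose (median -0.17), though only 2 of the falls reached 1. Aanat, the enzyme whose nightly activity sets the melatonin rhythm, read 6.52, 5.28 and 5.55 on the Crx-/- arrays, against 7.41, 7.41 and 7.95 on the control arrays (-1.81 ± 0.33, adjusted p = 0.00454), although ZT6 is the time of its low. Tph1, the first enzyme of the path, was bright in all glands at 13.16, 13.14 and 13.04 on the Crx-/- arrays, against 13.51, 13.54 and 13.50 on the control arrays (-0.40 ± 0.05, adjusted p = 0.000535), 1.32-fold lower. Ddc, which makes serotonin from its precursor, did not pass (-0.09 ± 0.05, adjusted p = 0.279). The cofactor of Tph1, tetrahydrobiopterin, is made and recycled by several enzymes. Spr, the last step of its synthesis, changed by -0.97 ± 0.20, adjusted p = 0.00827, the recycling enzymes Pcbd1 and Qdpr by -0.49 and -0.22, and Gchfr, the feedback regulator of the first step, by -1.60 ± 0.13, adjusted p = 5.7e-05. Maoa, which breaks serotonin down, rose, with 9.89, 9.77 and 9.70 on the Crx-/- arrays, against 9.02, 9.04 and 8.88 on the control arrays (0.81 ± 0.11, adjusted p = 0.000813). The 7 falls among these genes became 4 without a variance trend. Qdpr lost its call without Crx-/- replicate 2 or control replicate 1, 2 or 3 (adjusted p up to 0.078).

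Of 31 genes of adrenergic and cyclic AMP signalling 9 rose and 6 fell (median -0.07). Adcy3, an adenylyl cyclase, read 8.22, 8.35 and 8.27 on the Crx-/- arrays, against 11.19, 11.46 and 11.44 on the control arrays, a change of -3.08 ± 0.11, adjusted p = 7.34e-07 that 4 of its 4 probe sets shared in direction and call. Pde10a, a phosphodiesterase, fell by 1.36 on the log2 scale. Pde4a (at least 2.14-fold higher, 1.41 ± 0.39, adjusted p = 0.0307) and Rgs4, a brake on G protein signals (1.37 ± 0.32, adjusted p = 0.0139), rose. Gnas, the stimulatory G protein subunit, did not pass (0.14 ± 0.07, adjusted p = 0.174). Of 28 immediate early and cyclic AMP-induced genes 5 rose (17.9%) and 3 fell (10.7%), close to the shares of all genes. Crem, whose inducible form ICER represses cyclic AMP targets, read 8.80, 8.70 and 8.52 on the Crx-/- arrays, against 9.89, 10.01 and 10.03 on the control arrays (-1.31 ± 0.11, adjusted p = 8.26e-05), and 4 of its 4 probe sets fell. The 9 rises among adrenergic and cyclic AMP genes became 4 without control replicate 1, 5 without Crx-/- replicate 1 and 3 without a variance trend. The calls were lost for Pde4a without Crx-/- replicate 1 or 2 or control replicate 1 or 3 (adjusted p up to 0.106) and for Rgs4 without control replicate 1 (adjusted p = 0.052).

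**Figure D2:**
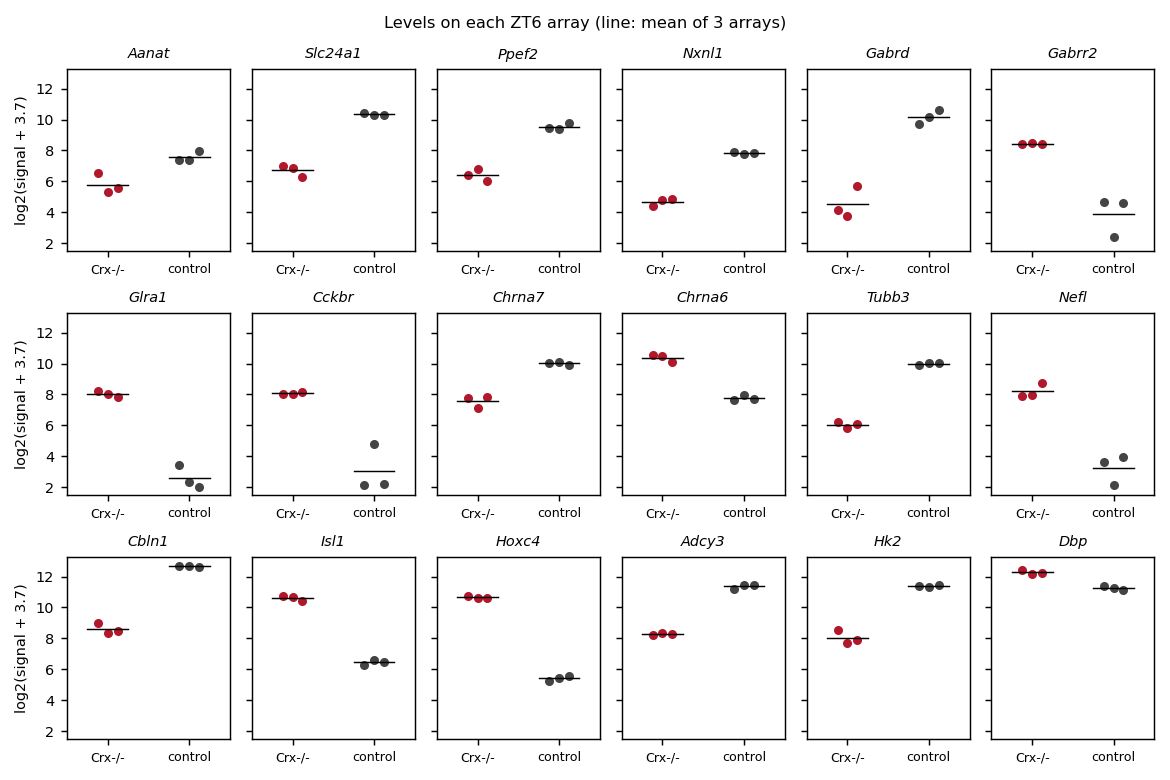
Level (log2 of signal plus 3.7, vertical axis) of 18 genes on each ZT6 array, with the 3 Crx-/- arrays in red left of the 3 control arrays in dark grey; the line is the mean of 3 arrays. In each panel the groups do not overlap, as in 44.6% of all genes. Called list members of largest change were named only where the groups did not overlap. Gabrd, Gabrr2, Glra1, Cckbr and Nefl lie at or near background in one of the groups.

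Of 15 GABA-A receptor subunits, the channels of fast inhibition, 6 rose and 2 fell (median 0.73). Gabrd, the delta subunit of receptors outside synapses, read 4.12, 3.78 and 5.71 on the Crx-/- arrays, against 9.74, 10.16 and 10.59 on the control arrays (-5.63 ± 0.45, adjusted p = 5.22e-05), a level at least 41.8-fold lower, and both its probe sets fell; its change was -6.26 (adjusted p = 8.08e-06) without Crx-/- replicate 3. Gabrr1, a rho subunit known from the retina, read 3.68, 3.64 and 3.50 on the Crx-/- arrays, against 7.55, 7.34 and 7.75 on the control arrays (-3.94 ± 0.25, adjusted p = 1.4e-05), at least 10.2-fold lower. Its neighbour in the genome and in structure, Gabrr2, moved the other way at 8.44, 8.50 and 8.41 on the Crx-/- arrays, against 4.65, 2.43 and 4.61 on the control arrays (4.55 ± 0.53, adjusted p = 0.000387), at least 15.7-fold higher. Gabrb2 (3.02 ± 0.54, adjusted p = 0.0041), Gabra3 (1.82) and Gabrg1 (1.77) rose too. Gabrb2 read 8.01, 7.66 and 9.95 on the Crx-/- arrays, against 4.94, 6.05 and 5.57 on the control arrays, so part of its mean came from replicate 3; without that array its change was 2.34 (adjusted p = 0.00274). Gabra2 read 5.03, 4.45 and 9.22 on the Crx-/- arrays, against 3.98, 3.64 and 4.27 on the control arrays, with control arrays at or near background, and did not pass (2.27 ± 1.03, adjusted p = 0.165); without Crx-/- replicate 3 it changed by 0.77 (adjusted p = 0.203).

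Glra1, the ligand-binding subunit of the adult glycine receptor, had 8.20, 8.03 and 7.81 on the Crx-/- arrays, against 3.41, 2.31 and 2.04 on the control arrays (5.43 ± 0.38, adjusted p = 2.27e-05), at least 13.9-fold higher. Glra2 rose from a dim level (at least 1.65-fold), and Gphn, the scaffold gephyrin, by 0.43 ± 0.08, adjusted p = 0.00567. The glycine transporter Slc6a9 fell (-0.80 ± 0.09, adjusted p = 0.000382), as did the beta subunit Glrb (-0.39). Slc6a5, the transporter of glycinergic neurons, did not pass (-0.11 ± 0.14, adjusted p = 0.668). In all 3 of 8 glycine receptor and transporter genes rose and 2 fell. Glrb lost its call without Crx-/- replicate 1 or 2 or control replicate 1, 2 or 3 (adjusted p up to 0.133).

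Glutamate receptor genes that passed were mostly higher. Of 17 ionotropic subunits 9 rose and 1, Grik3 (-0.53), fell, with a median of 1.12; of 6 metabotropic receptors, Grm7 (2.06 ± 0.47, adjusted p = 0.0135) and Grm4 (1.17 ± 0.19, adjusted p = 0.00228) rose and none fell. Without Crx-/- replicate 3, the highest of its group, Grm7 changed by 1.43 (adjusted p = 0.0072). Grin2c, an NMDA receptor subunit, read 10.11, 10.53 and 9.81 on the Crx-/- arrays, against 7.04, 7.22 and 6.91 on the control arrays (3.09 ± 0.19, adjusted p = 1.24e-05). Gria2, which makes AMPA receptors calcium-tight, read 7.29, 6.92 and 9.11 on the Crx-/- arrays, against 4.16, 3.79 and 4.65 on the control arrays (3.57 ± 0.52, adjusted p = 0.00138). With all arrays it was at least 10.7-fold higher, a bound raised by replicate 3 of the Crx-/- group, the highest. Its fitted change was 2.91 (adjusted p = 0.00101) without that array. Grin3a changed by 2.27 ± 0.26, adjusted p = 0.000336 and Gria4 by 1.53 ± 0.34, adjusted p = 0.0114.

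Of 18 nicotinic and muscarinic acetylcholine receptor genes 7 fell and 2 rose (median -0.60). Chrna7 read 7.76, 7.12 and 7.82 on the Crx-/- arrays, against 10.04, 10.11 and 9.89 on the control arrays (-2.45 ± 0.19, adjusted p = 4.3e-05) and Chrna5 6.10, 6.24 and 5.65 on the Crx-/- arrays, against 7.79, 7.72 and 8.41 on the control arrays (-1.97 ± 0.25, adjusted p = 0.000655). Chrna3, Chrnb2 and Chrnb4, subunits of the ganglionic receptor type, changed by -1.13, -0.83 and -0.66. Chrna6, a subunit of dopamine neurons and the retina, went the other way, at 10.57, 10.46 and 10.12 on the Crx-/- arrays, against 7.65, 7.96 and 7.69 on the control arrays (2.62 ± 0.15, adjusted p = 8.1e-06). Of 24 amine receptors 4 rose and 4 fell (16.7% each), against 16.3% and 12.3% of all genes. Drd1, a dopamine receptor, fell (at least 3.84-fold), and so did Htr3a, a serotonin-gated channel (-2.29 ± 0.26, adjusted p = 0.000356); the serotonin receptor Htr1d (1.93 ± 0.29, adjusted p = 0.00148) and the histamine receptor Hrh1 (at least 2.4-fold) rose. The 4 falls among amine receptors became 2 without Crx-/- replicate 1, 2 or 3 or control replicate 1 and 2 with signals as deposited.

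**Figure D3:**
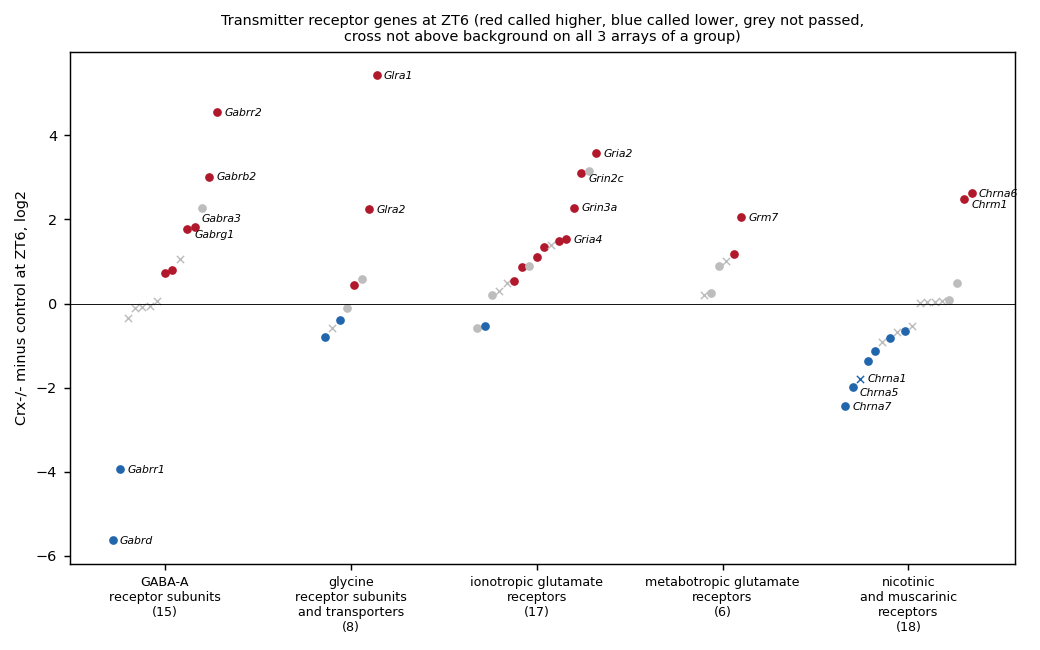
Change at ZT6 (Crx-/- minus control, log2, vertical axis) of each subunit or transporter gene in 5 receptor families (horizontal axis, number of genes in brackets). Red is called higher, blue called lower and grey not passed; crosses mark genes above background in neither group on all 3 arrays. GABA-A subunits run from -5.63 for Gabrd to 4.55 for Gabrr2, whereas called glutamate receptor subunits lie mostly above 0 and called nicotinic ones mostly below.

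Of 68 potassium channel genes 21 rose and 2 fell (median 0.38), and of 13 sodium and HCN channels 7 rose and 1 fell (median 1.10). Kcnt1, a sodium-activated potassium channel, read 7.77, 7.47 and 7.89 on the Crx-/- arrays, against 5.13, 4.47 and 5.09 on the control arrays (2.81 ± 0.26, adjusted p = 0.000112) and Kcna2 8.26, 7.96 and 8.41 on the Crx-/- arrays, against 5.88, 6.27 and 6.16 on the control arrays (2.11 ± 0.20, adjusted p = 0.000135). Kcnq5 and Kcnq3, channels of the M current, changed by 2.47 ± 0.64, adjusted p = 0.0241 and 2.43 ± 0.68, adjusted p = 0.034, the second at least 3.79-fold higher than dim control arrays. Replicate 3 of the Crx-/- group was the highest, and without it their fitted changes were 1.69 (adjusted p = 0.037) and 1.52 (adjusted p = 0.0361). The auxiliary sodium channel subunit Scn3b changed by 1.81 ± 0.27, adjusted p = 0.00164. Hcn3, a pacemaker channel, was the one of its list that fell, at 9.14, 9.17 and 8.85 on the Crx-/- arrays, against 10.89, 10.87 and 10.92 on the control arrays (-1.84 ± 0.11, adjusted p = 9.62e-06), and Kcnd3, the brightest potassium channel that did not pass, changed by -0.07 ± 0.05, adjusted p = 0.369. Of 24 calcium channel genes 5 rose (20.8%) and 3 fell (12.5%), against 16.3% and 12.3% of all genes. Among them were Cacna1e (2.53 ± 0.27, adjusted p = 0.00023) and the beta subunit Cacnb2 (-1.98 ± 0.16, adjusted p = 5.23e-05). Of 43 TRP and chloride channel genes 8 rose (18.6%) and 5 fell (11.6%), close to the shares of all genes. Clca1, a regulator of chloride current, read 5.25, 5.03 and 4.79 on the Crx-/- arrays, against 8.69, 9.04 and 8.69 on the control arrays (-3.78 ± 0.21, adjusted p = 7.02e-06). The 21 rises among potassium channels became 11 without a variance trend. The 7 rises among sodium and HCN channels became 3 without Crx-/- replicate 1 or control replicate 1, 4 without control replicate 2 or 3 and 3 without a variance trend. The 8 rises among TRP and chloride channels became 3 without control replicate 1, 4 without Crx-/- replicate 2, 5 without control replicate 3, 4 with signals as deposited and 3 without a variance trend. The 5 falls became 3 without Crx-/- replicate 2 or control replicate 1, 2 or 3, 3 with signals as deposited and 3 without a variance trend. These calls were lost for Kcnq3 without Crx-/- replicate 1 or control replicate 1, 2 or 3 (adjusted p up to 0.115) and for Kcnq5 without control replicate 2 (adjusted p = 0.0891).

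Peptide signalling rose in 13 of 50 genes and fell in 3 (median 0.44). Cckbr, a cholecystokinin receptor, had 8.05, 8.03 and 8.16 on the Crx-/- arrays, against 2.10, 4.79 and 2.21 on the control arrays (5.04 ± 0.63, adjusted p = 0.000559), at least 12.5-fold higher. The peptides neurotensin (Nts, 2.72 ± 0.23, adjusted p = 6.6e-05), somatostatin (Sst, 2.23 ± 0.25, adjusted p = 0.000291) and Npy (at least 3.86-fold) rose as well; Npy had a fitted change of 2.53 (adjusted p = 0.00202) without control replicate 3, which read highest of its group. Nts read 8.46, 8.36 and 7.89 on the Crx-/- arrays, against 5.33, 5.44 and 5.78 on the control arrays. Pomc, the precursor of melanocortins and endorphin, fell (-1.23), and Cartpt did not pass (-0.22 ± 0.12, adjusted p = 0.257). The 3 falls among peptide genes became 1 without Crx-/- replicate 2 or control replicate 1 or 2.

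Genes of the release machinery fell more often than genes at large and rose at a share near that of all genes. Of 74 synaptic vesicle and SNARE genes 14 rose (18.9%) and 18 fell (24.3%), against 16.3% and 12.3% of all genes, with a median of -0.02. The calcium sensor Syt2 read 6.66, 6.54 and 6.87 on the Crx-/- arrays, against 9.26, 9.34 and 9.11 on the control arrays (-2.54 ± 0.16, adjusted p = 1.24e-05), and 3 of its 3 probe sets fell. Syt6 (-2.08 ± 0.19, adjusted p = 9.99e-05) and the complexin Cplx2 (-1.56 ± 0.40, adjusted p = 0.0231) fell, whereas the priming factor Unc13c rose (1.56 ± 0.23, adjusted p = 0.00137). Snap25, the core SNARE protein, was bright and did not pass (-0.04 ± 0.05, adjusted p = 0.637). The 14 rises among vesicle and SNARE genes became 8 without a variance trend. The 18 falls became 9 without a variance trend. Cplx2 changed by -2.16 (adjusted p = 4.09e-05) without Crx-/- replicate 3, and its call was lost without Crx-/- replicate 1 or 2 or control replicate 1, 2 or 3 (adjusted p up to 0.0938).

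Synaptic adhesion genes rose more often, 24 of 57 against 6 that fell (median 0.74), and so did axon guidance genes, 29 of 72 against 3 (median 0.50). Cbln1, a secreted organizer of synapses, stood against that trend at 8.97, 8.38 and 8.47 on the Crx-/- arrays, against 12.70, 12.72 and 12.65 on the control arrays (-4.08 ± 0.14, adjusted p = 7.34e-07), 16.9-fold lower, with 3 of 3 probe sets lower; its paralog Cbln2 was at least 2.29-fold higher, a call lost without Crx-/- replicate 1 or 3 or control replicate 1 or 3 (adjusted p up to 0.0821). C1ql3, a secreted relative, and the presynaptic receptor Nrxn3 fell too (-2.50 and -2.16), C1ql3 by -3.36 without Crx-/- replicate 3. Lgi2 read 9.34, 9.18 and 9.58 on the Crx-/- arrays, against 5.49, 5.49 and 5.41 on the control arrays (3.90 ± 0.17, adjusted p = 2.4e-06), Cntn3, a contactin, 9.70, 9.64 and 10.07 on the Crx-/- arrays, against 6.998, 6.72 and 6.71 on the control arrays (2.996 ± 0.16, adjusted p = 6.56e-06), and Cntnap5a was at least 6.49-fold higher. Among guidance genes the ephrin receptor Epha8 had 8.51, 7.79 and 8.07 on the Crx-/- arrays, against 3.97, 4.05 and 2.86 on the control arrays (4.50 ± 0.36, adjusted p = 5.4e-05), at least 15-fold higher, while Epha10 fell (-2.63 ± 0.26, adjusted p = 0.000159). The repellent Sema3a read 9.58, 9.62 and 9.63 on the Crx-/- arrays, against 6.73, 7.42 and 7.21 on the control arrays (2.49 ± 0.18, adjusted p = 2.93e-05) on 3 of 3 probe sets, and Ntng1 changed by 2.45 ± 0.20, adjusted p = 5.82e-05. Cadherins and protocadherins rose in 19 of 55 genes and fell in 3 (median 0.52), with Pcdh9 at 2.76 ± 0.23, adjusted p = 6.7e-05 and Pcdh7 at 2.45 ± 0.14, adjusted p = 8.73e-06.

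Of 30 genes of the neuronal cytoskeleton 5 rose and 5 fell, shares close to those of all genes. Tubb3, the neuronal beta tubulin, read 6.20, 5.85 and 6.07 on the Crx-/- arrays, against 9.91, 10.05 and 10.03 on the control arrays (-3.95 ± 0.15, adjusted p = 9.9e-07), 15.5-fold lower. The light neurofilament Nefl read 7.91, 7.98 and 8.73 on the Crx-/- arrays, against 3.63, 2.14 and 3.93 on the control arrays (4.97 ± 0.46, adjusted p = 0.000118), at least 15.9-fold higher, and the medium one, Nefm, rose (1.48 ± 0.28, adjusted p = 0.00554), but the heavy one, Nefh, fell, at 8.35, 8.78 and 8.66 on the Crx-/- arrays, against 10.58, 10.43 and 10.79 on the control arrays (-1.999 ± 0.14, adjusted p = 2.65e-05). Tuba1a was bright and did not pass (-0.06 ± 0.05, adjusted p = 0.486). Of 26 neuronal RNA-binding protein genes 7 rose and 3 fell. The splicing factor Rbfox1 read 9.44, 9.58 and 9.29 on the Crx-/- arrays, against 6.28, 6.16 and 5.79 on the control arrays (3.36 ± 0.18, adjusted p = 6.19e-06), with 3 of 4 probe sets higher, and Nova1 9.48, 9.71 and 9.79 on the Crx-/- arrays, against 7.09, 7.22 and 7.24 on the control arrays (2.48 ± 0.14, adjusted p = 7.38e-06). Rbfox3, known as the nuclear antigen NeuN, read 6.82, 6.78 and 9.58 on the Crx-/- arrays, against 3.39, 4.0000 and 5.09 on the control arrays (3.56 ± 0.73, adjusted p = 0.00778). With all arrays it was at least 9.38-fold higher, a bound raised by replicate 3 of the Crx-/- group. Without that array its fitted change was 2.64 (adjusted p = 0.00695), and without replicate 3 of the control group 4.02 (adjusted p = 0.00882). Celf6 fell (-2.32 ± 0.24, adjusted p = 0.000206). The 7 rises among RNA-binding protein genes became 4 with signals as deposited. The 3 falls became 6 without Crx-/- replicate 3, 1 with signals as deposited and 1 without a variance trend.

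Calcium-binding proteins moved both ways, and 15 of 63 calcium handling genes rose and 12 fell. Calb2, calretinin, had 7.04, 6.95 and 6.97 on the Crx-/- arrays, against 3.66, 2.14 and 2.96 on the control arrays (4.07 ± 0.39, adjusted p = 0.000132), at least 6.83-fold higher, and Calb1, calbindin, read 6.66, 7.60 and 9.93 on the Crx-/- arrays, against 5.40, 5.02 and 5.83 on the control arrays (2.65 ± 0.68, adjusted p = 0.0234). Without Crx-/- replicate 3 Calb1 changed by 1.73 (adjusted p = 0.0147). Vsnl1 was decided by 1 array in size, at 6.16, 5.68 and 10.66 on the Crx-/- arrays, against 3.91, 3.37 and 3.95 on the control arrays. With all arrays it was at least 9.77-fold higher, a bound that rests on replicate 3 of the Crx-/- group. Its fitted change was 3.76 from all arrays and 2.17 (adjusted p = 0.00447) without that replicate. Cabp1 (-2.70 ± 0.27, adjusted p = 0.000171) and the kinase-like Camkv (-3.27 ± 0.26, adjusted p = 5.09e-05) fell, Camkv by -3.67 without that replicate. Calls were lost for Calb1 without control replicate 1 or 2 (adjusted p up to 0.0819) and for Vsnl1 without control replicate 1, 2 or 3 (adjusted p up to 0.108). The 15 rises among calcium handling genes became 9 without control replicate 1 or 2 and 7 without a variance trend. The 12 falls became 5 with signals as deposited. Of 22 markers of brain and habenular neurons 6 rose and 5 fell (7 and 6 without Crx-/- replicate 3), and Chat, Slc5a7 and Gpr151, markers of habenular neurons, lay at background on all 6 arrays; the summed signal of the list was 30001 to 36114 on Crx-/- arrays, against 38528 to 39935 on control arrays. Retinal neuron markers rose in 9 of 19 and fell in 2. The part of these cell types in the neuronal results was not tested.

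Of 118 homeobox genes outside the Hox clusters 28 rose and 10 fell, and of 54 basic helix-loop-helix genes 18 rose and 6 fell. Isl1, a factor of motor and retinal neurons, read 10.73, 10.65 and 10.41 on the Crx-/- arrays, against 6.25, 6.57 and 6.50 on the control arrays (4.15 ± 0.15, adjusted p = 7.92e-07), 17.8-fold higher. Prox1 (3.55 ± 0.25, adjusted p = 2.66e-05) rose on 1 of its 3 probe sets and Pou3f1 (3.15 ± 0.19, adjusted p = 1.23e-05) on 1 of its 2. Neurod2 read 11.22, 11.11 and 11.10 on the Crx-/- arrays, against 7.95, 7.54 and 7.84 on the control arrays (3.37 ± 0.13, adjusted p = 9.79e-07). Tal2, a helix-loop-helix factor of midbrain neurons, was bright in control glands and fell, with 5.84, 5.10 and 5.24 on the Crx-/- arrays, against 10.78, 10.72 and 11.001 on the control arrays (-5.44 ± 0.21, adjusted p = 9.79e-07), 43.4-fold lower. Myog, the muscle factor myogenin, read 8.06, 7.26 and 7.55 on the Crx-/- arrays, against 11.50, 11.46 and 11.47 on the control arrays (-3.85 ± 0.18, adjusted p = 2.8e-06), and its relative Myod1 was at least 2-fold lower, a call lost without Crx-/- replicate 2 or 3 or control replicate 1, 2 or 3 (adjusted p up to 0.117). Prrxl1, a factor of sensory neurons, fell (-3.02 ± 0.16, adjusted p = 5.32e-06). Otx2, Lhx4 and Neurod4, among the factors of the photoreceptor and pineal lineage, stayed bright. Otx2 changed by 0.04 ± 0.06, adjusted p = 0.749, Lhx4 by 0.00 ± 0.05, adjusted p = 0.977 and Neurod4 by 0.01 ± 0.04, adjusted p = 0.936, none of which passed on these probe sets. When all probe sets of a gene were averaged, Lhx4 read -0.26 and Neurod4 -0.20 instead. The 10 falls among homeobox genes became 6 without Crx-/- replicate 1 and 6 with signals as deposited.

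Of 33 Hox genes, which pattern the trunk, 4 rose (12.1%) and 1 fell (3.03%), against 16.3% and 12.3% of all genes. Hoxc4 read 10.75, 10.64 and 10.62 on the Crx-/- arrays, against 5.25, 5.42 and 5.57 on the control arrays (5.26 ± 0.15, adjusted p = 2.16e-07), 38.3-fold higher on its single probe set. Its cluster neighbours Hoxc5 (0.68 ± 0.17, adjusted p = 0.0187) and Hoxc6 (1.31 ± 0.28, adjusted p = 0.00941) rose by less, Hoxd9 rose from a dim level (at least 1.28-fold), and Hoxc10 was called lower with all 6 arrays at background, so no fold is given. Hoxa7, the brightest that did not pass, changed by -0.34 ± 0.38, adjusted p = 0.611. The 4 rises among Hox genes became 2 without Crx-/- replicate 1 or control replicate 1. Calls were lost for Hoxc5 without Crx-/- replicate 1 or 3 or control replicate 1 (adjusted p up to 0.078), for Hoxd9 without Crx-/- replicate 1 or 3 or control replicate 1, 2 or 3 (adjusted p up to 0.059) and for Hoxc10 without Crx-/- replicate 1, 2 or 3 or control replicate 1 or 2 (adjusted p up to 0.112).

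Genes of the extracellular matrix rose more often than genes at large. Of 42 collagen genes 24 rose and 3 fell (median 1.02), of 40 laminins and other matrix glycoproteins 26 rose and 2 fell (median 0.78), of 34 proteoglycans 21 rose and 3 fell (median 0.68), and of 43 matrix proteases and their inhibitors 19 rose and 1 fell (median 0.62). Col3a1, a fibrillar collagen of soft tissue, read 12.46, 12.58 and 12.15 on the Crx-/- arrays, against 10.55, 10.49 and 10.94 on the control arrays (1.74 ± 0.14, adjusted p = 5.22e-05). Of the minor collagens Col11a1 changed by 2.31 ± 0.21, adjusted p = 0.000107, Col26a1 by 2.34 ± 0.30, adjusted p = 0.000622 and Col25a1, a neuronal membrane collagen, by 2.21 ± 0.32, adjusted p = 0.00135. Lama2, a basement membrane laminin, read 10.58, 10.14 and 10.13 on the Crx-/- arrays, against 8.73, 8.75 and 8.70 on the control arrays (1.56 ± 0.14, adjusted p = 8.13e-05) and elastin, Eln, 10.53, 10.24 and 9.95 on the Crx-/- arrays, against 8.65, 8.73 and 8.65 on the control arrays (1.56 ± 0.15, adjusted p = 0.000121). Tnr, a tenascin of perineuronal nets, changed by 2.59 ± 0.33, adjusted p = 0.000651 and versican, Vcan, by 1.99 ± 0.13, adjusted p = 1.68e-05. Lox, which crosslinks collagen and elastin, read 11.30, 11.19 and 11.21 on the Crx-/- arrays, against 9.31, 9.27 and 9.54 on the control arrays (1.86 ± 0.10, adjusted p = 5.58e-06). Hapln4, a link protein of perineuronal nets, fell (-1.70 ± 0.20, adjusted p = 0.000442). Col8a1 was the brightest collagen that did not pass (-0.10 ± 0.07, adjusted p = 0.375).

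Markers of connective tissue rose beside these genes. Of 21 fibroblast, meningeal and mural cell markers 16 rose and 1, Abcc9, fell (-1.31 ± 0.13, adjusted p = 0.000161), and their summed signal was 66097 to 71252 on Crx-/- arrays, against 40313 to 40612 on control arrays; 3 collagens, 1 matrix glycoprotein and 3 proteoglycans stand in that list too. Its most changed member, Aldh1a2, which makes retinoic acid, read 10.36, 10.07 and 10.39 on the Crx-/- arrays, against 8.36, 8.14 and 8.27 on the control arrays (2.02 ± 0.13, adjusted p = 1.39e-05). Endothelial markers rose in 9 of 15, with sums of 17296 to 21718 on Crx-/- arrays, against 12666 to 13268 on control arrays, and choroid plexus and ependymal markers in 8 of 14, none by as much as 1. Transthyretin, Ttr, the most abundant transcript of choroid plexus, was near the top of the signal range on all arrays and did not pass (0.00). The part of these cells in the rise of the matrix was not tested. The 9 rises among endothelial markers became 4 without control replicate 1 or 2, 5 without Crx-/- replicate 1, 5 with signals as deposited and 3 without a variance trend. The 8 rises among choroid plexus and ependymal markers became 2 without control replicate 1, 4 without Crx-/- replicate 2 or control replicate 3, 5 without Crx-/- replicate 3, 2 with signals as deposited and 1 without a variance trend.

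Glial markers rose as well. Of 15 astrocyte markers 10 rose and 1 fell (median 0.76). The glutamate transporter Slc1a3 read 10.05, 9.81 and 11.20 on the Crx-/- arrays, against 8.03, 8.03 and 8.04 on the control arrays (2.32 ± 0.30, adjusted p = 0.0007; 1.92 (adjusted p = 8.06e-05) without Crx-/- replicate 3) and the connexins Gjb6 and Gjb2 changed by 1.71 ± 0.14, adjusted p = 5.78e-05 and 1.32 ± 0.10, adjusted p = 4.3e-05. Fabp7, a fatty acid carrier of immature astrocytes, fell, at 11.49, 11.40 and 11.36 on the Crx-/- arrays, against 13.08, 13.04 and 13.20 on the control arrays (-1.69 ± 0.07, adjusted p = 1.09e-06). Of 8 Schwann cell markers 6 rose (median 1.28) and of 14 oligodendrocyte markers 7 rose, none falling in either list. Sox10, shared by both lineages, read 9.34, 8.83 and 9.01 on the Crx-/- arrays, against 6.58, 6.62 and 6.35 on the control arrays (2.54 ± 0.18, adjusted p = 2.67e-05) and myelin basic protein, Mbp, 11.27, 10.75 and 10.95 on the Crx-/- arrays, against 9.17, 8.94 and 9.27 on the control arrays (1.86 ± 0.14, adjusted p = 4.3e-05). The summed signal was 8590 to 10273 on Crx-/- arrays, against 4841 to 5339 on control arrays, for Schwann cell markers and 13560 to 16450 on Crx-/- arrays, against 8081 to 9063 on control arrays, for oligodendrocyte markers.

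**Figure D4:**
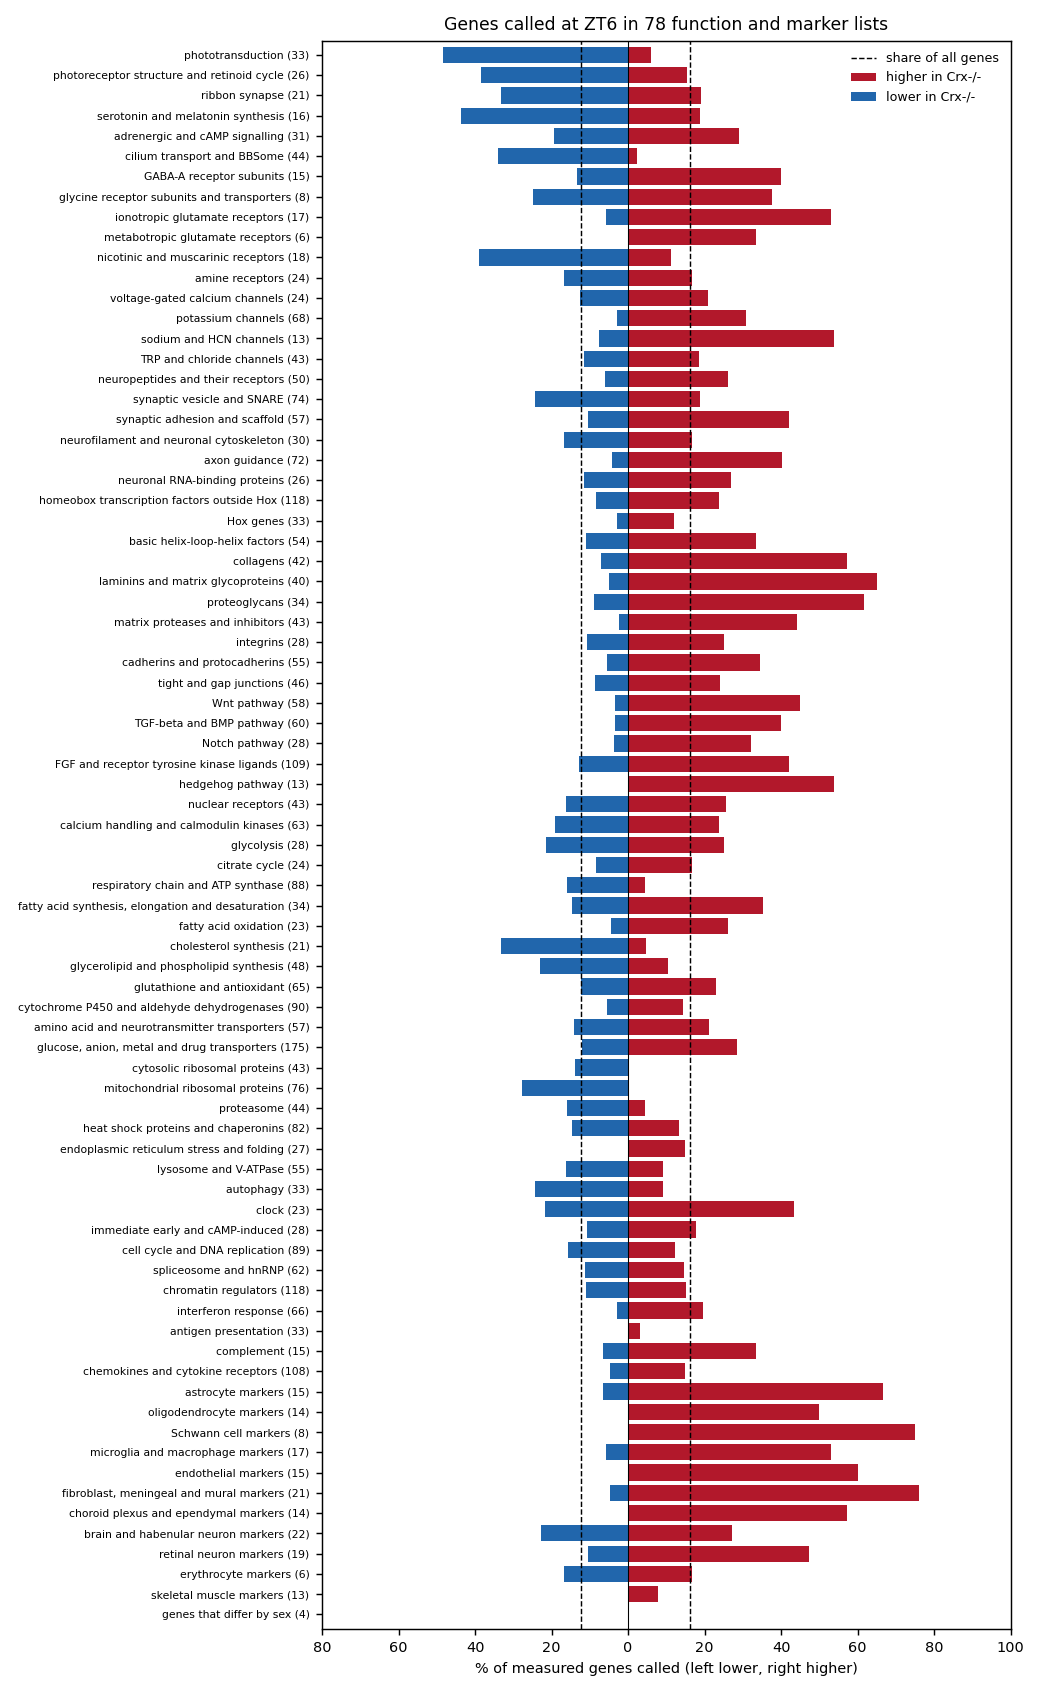
Share of the measured genes of each of 78 lists (number of genes in brackets) called higher (red, to the right) or lower (blue, to the left) in Crx-/- glands at ZT6. Dashed lines mark the shares over all 18193 genes, 16.3% higher and 12.3% lower. Phototransduction, melatonin synthesis, cilium, nicotinic receptor, cholesterol and mitochondrial ribosome genes extend left of the dashed line, and glutamate receptor, sodium channel, matrix and glial marker genes extend right of it.

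Genes of growth factor pathways rose more often than they fell. Of 58 Wnt pathway genes 26 rose and 2 fell (median 0.45), of 60 TGF-beta and BMP genes 24 rose and 2 fell, of 28 Notch genes 9 rose and 1 fell, of 13 hedgehog genes 7 rose and none fell, and of 109 FGF and receptor tyrosine kinase genes 46 rose and 14 fell. The ligand Wnt4 read 7.45, 6.39 and 7.11 on the Crx-/- arrays, against 5.98, 4.92 and 4.80 on the control arrays (1.75 ± 0.38, adjusted p = 0.011) and the agonist Rspo1 7.39, 7.39 and 7.42 on the Crx-/- arrays, against 5.84, 5.80 and 5.97 on the control arrays (1.53 ± 0.19, adjusted p = 0.000573), while the ligand Wnt3a fell near background (at least 1.52-fold). Bmp5 read 11.22, 11.08 and 11.15 on the Crx-/- arrays, against 9.64, 9.82 and 9.61 on the control arrays (1.46 ± 0.09, adjusted p = 1.4e-05), and Fstl5, a follistatin-like protein, was at least 10.4-fold higher. The Notch targets Hes5 (1.47 ± 0.23, adjusted p = 0.00221), Heyl (1.45 ± 0.18, adjusted p = 0.0005) and Hes1 (0.93 ± 0.19, adjusted p = 0.00738) rose together. In the hedgehog pathway the coreceptor Boc (1.002 ± 0.07, adjusted p = 2.76e-05), the effector Gli3 (1.19 ± 0.12, adjusted p = 0.000168) and the target Hhip (1.30 ± 0.25, adjusted p = 0.00581) rose, and the target Ptch1 did not pass (0.18 ± 0.06, adjusted p = 0.0745). The 26 rises among Wnt pathway genes became 15 when the probe sets of a gene were averaged. The 14 falls among FGF and receptor tyrosine kinase genes became 9 with signals as deposited. Wnt4 lost its call without Crx-/- replicate 1 (adjusted p = 0.0515).

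Ret and its coreceptor fell against that trend. Ret, the kinase of the GDNF receptor, read 7.06, 6.58 and 7.10 on the Crx-/- arrays, against 9.91, 9.93 and 10.0004 on the control arrays (-3.03 ± 0.16, adjusted p = 6.21e-06), and its coreceptor Gfra1 read 7.46, 7.41 and 7.41 on the Crx-/- arrays, against 10.85, 10.92 and 11.06 on the control arrays (-3.52 ± 0.11, adjusted p = 4.33e-07) on 3 of 3 probe sets. Gfra3, the coreceptor of artemin, rose (1.78 ± 0.23, adjusted p = 0.00068) and is also a Schwann cell marker. Neuregulin, Nrg1, was at least 3.8-fold higher, with a fitted change of 4.02 (adjusted p = 0.000168) without control replicate 3, the highest of its group, and its receptor Erbb3 changed by 1.62 ± 0.23, adjusted p = 0.00108. Dusp26, a phosphatase of neurons, read 8.94, 8.996 and 8.77 on the Crx-/- arrays, against 5.92, 4.87 and 5.18 on the control arrays (3.58 ± 0.27, adjusted p = 3.52e-05). Of 43 nuclear receptor genes 11 rose and 7 fell, with Nr2f1 (1.31 ± 0.09, adjusted p = 1.84e-05) higher and Pparg (-1.57 ± 0.17, adjusted p = 0.000281) lower. The 11 rises among nuclear receptors became 6 without control replicate 1 or 2, 6 with signals as deposited and 3 without a variance trend. The 7 falls became 4 with signals as deposited.

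Metabolic genes shifted in both directions. Hk2, the hexokinase of high glycolytic demand, read 8.52, 7.72 and 7.87 on the Crx-/- arrays, against 11.38, 11.33 and 11.44 on the control arrays (-3.35 ± 0.19, adjusted p = 7.01e-06), 10.2-fold lower, while of 28 glycolysis genes 7 rose and 6 fell. The lactate dehydrogenase subunits went apart: Ldhb read 13.15, 13.24 and 13.15 on the Crx-/- arrays, against 12.36, 12.42 and 12.28 on the control arrays (0.82 ± 0.06, adjusted p = 2.48e-05) and Ldha changed by -0.59. The citrate cycle had 4 of 24 genes higher (16.7%) and 2 lower (8.33%), none by as much as 1, against 16.3% and 12.3% of all genes. Of 88 respiratory chain and ATP synthase genes 14 fell and 4 rose (median -0.07). Of the 4 that rose, 3 are tissue-specific subunits of cytochrome oxidase: Cox6a2, known from muscle, read 8.91, 8.999 and 8.86 on the Crx-/- arrays, against 6.22, 6.01 and 6.19 on the control arrays (2.78 ± 0.16, adjusted p = 8.02e-06), Cox4i2 changed by 1.37 ± 0.18, adjusted p = 0.000851 and Cox8b by 1.33 ± 0.11, adjusted p = 5.51e-05. Ndufb1, of complex I, fell (-2.09 ± 0.24, adjusted p = 0.000387). The 14 falls among respiratory chain genes became 7 without control replicate 1 or 3, 9 without control replicate 2, 3 with signals as deposited and 3 without a variance trend. The 4 rises among citrate cycle genes became 2 without Crx-/- replicate 3 or control replicate 1 or 3, 1 with signals as deposited and 1 without a variance trend. The 6 falls among glycolysis genes became 3 with signals as deposited.

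Lipid enzymes held the largest fall of all genes. Fads2b, a relative of the fatty acid desaturase Fads2, read 5.12, 4.35 and 4.28 on the Crx-/- arrays, against 10.62, 10.91 and 11.17 on the control arrays (-6.32 ± 0.25, adjusted p = 1.14e-06), 79.8-fold lower. Mogat1, which makes diacylglycerol, read 9.65, 6.66 and 6.66 on the Crx-/- arrays, against 12.71, 12.76 and 12.81 on the control arrays (-5.10 ± 0.66, adjusted p = 0.000714), with replicate 1 of the Crx-/- group above its group. Of 21 cholesterol synthesis genes 7 fell and 1 rose (median -0.15), among them squalene synthase, Fdft1, at 10.51, 10.30 and 10.53 on the Crx-/- arrays, against 12.02, 11.93 and 12.03 on the control arrays (-1.55 ± 0.08, adjusted p = 5.63e-06), and Fdps (-0.98 ± 0.18, adjusted p = 0.00397). Hmgcs1, an early enzyme of the path, did not pass (0.16 ± 0.05, adjusted p = 0.0605). Of 23 fatty acid oxidation genes 6 rose and 1 fell, all by under 1. Of 34 genes of fatty acid synthesis, elongation and desaturation 12 rose and 5 fell, and of 48 of glycerolipid and phospholipid synthesis 5 rose and 11 fell. The 7 falls among cholesterol genes became 4 with signals as deposited and 3 without a variance trend. The 6 rises among oxidation genes became 3 without Crx-/- replicate 1 or 2 or control replicate 1 or 3, 2 with signals as deposited and 3 without a variance trend. The 12 rises among synthesis and desaturation genes became 7 without control replicate 1, 6 with signals as deposited and 5 without a variance trend. The 5 falls became 3 with signals as deposited and 2 without a variance trend. The 5 rises among glycerolipid genes became 3 without Crx-/- replicate 2 or control replicate 1 or 3 and 2 with signals as deposited. The 11 falls became 7 without control replicate 1, 7 with signals as deposited and 7 without a variance trend.

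Of 175 transporters of sugars, anions, metals and drugs 50 rose and 21 fell, and of 57 amino acid and transmitter transporters 12 rose and 8 fell. Slc22a8, an organic anion exporter of barriers, read 9.81, 10.03 and 9.72 on the Crx-/- arrays, against 7.46, 7.81 and 7.47 on the control arrays (2.27 ± 0.15, adjusted p = 1.68e-05), while Slco1a5, another organic anion carrier, read 4.48, 5.01 and 4.17 on the Crx-/- arrays, against 7.72, 8.06 and 7.77 on the control arrays (-3.29 ± 0.27, adjusted p = 5.9e-05). Slc7a14, a lysosomal amino acid carrier, was at least 9.71-fold higher. Of 90 cytochrome P450 and aldehyde dehydrogenase genes 13 rose (14.4%) and 5 fell (5.56%), against 16.3% and 12.3% of all genes. Cyp2j13 read 4.73, 5.04 and 4.71 on the Crx-/- arrays, against 8.90, 9.19 and 9.11 on the control arrays (-4.24 ± 0.20, adjusted p = 2.8e-06). Cyp1a1, a target of the aryl hydrocarbon receptor, fell (-2.79 ± 0.31, adjusted p = 0.000293). Of 65 glutathione and antioxidant genes 15 rose and 8 fell, with Nqo1 at 0.86 ± 0.09, adjusted p = 0.000285. Panx2 and Panx1, channels that release ATP, both fell (-3.72 ± 0.31, adjusted p = 6.46e-05 and -1.87 ± 0.23, adjusted p = 0.0005), Panx2 by -4.19 without Crx-/- replicate 3. The 21 falls among the 175 transporters became 13 without control replicate 2 and 11 with signals as deposited. The 5 falls among P450 and aldehyde dehydrogenase genes became 2 with signals as deposited and 3 without a variance trend. The 8 falls among antioxidant genes became 4 without control replicate 2, 5 without Crx-/- replicate 3 or control replicate 1 or 3, 3 with signals as deposited and 3 without a variance trend.

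None of 43 cytosolic ribosomal protein genes and none of 76 mitochondrial ones rose, whereas 6 cytosolic (median -0.01) and 21 mitochondrial ones (median -0.18) fell. Mrpl49 read 10.38, 10.48 and 10.35 on the Crx-/- arrays, against 11.47, 11.57 and 11.62 on the control arrays (-1.15 ± 0.08, adjusted p = 2.09e-05) and Mrpl45 changed by -1.07 ± 0.11, adjusted p = 0.000219. The 6 falls among cytosolic ribosomal genes became 3 without Crx-/- replicate 3 or control replicate 1 or 3, 3 with signals as deposited and 3 without a variance trend. The 21 falls among mitochondrial ribosomal genes became 6 with signals as deposited and 7 without a variance trend. The proteasome had 2 of 44 genes higher and 7 lower, and heat shock proteins 11 of 82 higher and 12 lower. Lysosome genes had 5 of 55 higher and 9 lower. With 1 probe set a gene, these lists were called lower at shares close to that of all genes and higher less often. When the probe sets of a gene were averaged, 21 heat shock genes fell and 7 rose, and 14 lysosome genes fell and 8 rose. Of all 18193 genes 2471 fell and 2340 rose then. Of 33 autophagy genes 8 fell and 3 rose. Gabarapl1, which coats autophagosomes, read 11.63, 11.57 and 11.59 on the Crx-/- arrays, against 12.47, 12.52 and 12.53 on the control arrays (-0.91 ± 0.06, adjusted p = 1.4e-05). Of 27 genes of endoplasmic reticulum stress and folding 4 rose (14.8%, near the 16.3% of all genes) and none fell. Those that rose were Eif2ak3 (0.79), Trib3 (0.66), Creb3l2 (0.65) and Herpud1 (0.61). Trib3 lost its call without Crx-/- replicate 1 (adjusted p = 0.0502). The 7 falls among proteasome genes became 2 without Crx-/- replicate 1 or control replicate 1 or 3, 3 without control replicate 2, 4 without Crx-/- replicate 3, 0 with signals as deposited and 1 without a variance trend. The 11 rises among heat shock genes became 7 without Crx-/- replicate 1 or control replicate 2, 6 with signals as deposited and 4 without a variance trend. The 12 falls became 6 without control replicate 1, 7 without Crx-/- replicate 1 or control replicate 3, 5 with signals as deposited and 6 without a variance trend. The 5 rises among lysosome genes became 8 without Crx-/- replicate 3 or control replicate 3. The 9 falls became 4 without control replicate 1 or 2, 5 with signals as deposited and 4 without a variance trend. The 3 rises among autophagy genes became 0 without control replicate 1, 1 without Crx-/- replicate 1 or 2 or control replicate 3, 0 with signals as deposited and 1 without a variance trend. The 8 falls became 4 with signals as deposited and 3 without a variance trend.

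In the nucleus the cell cycle (11 of 89 higher, 14 lower), spliceosome (9 of 62 higher, 7 lower) and chromatin regulators (18 of 118 higher, 13 lower) lay close to the background shares. Bub1b, a checkpoint kinase, fell (-2.24 ± 0.21, adjusted p = 0.000121). The 11 rises among cell cycle genes became 6 without control replicate 1 or 2, 6 with signals as deposited and 5 without a variance trend. The 14 falls became 9 without control replicate 2 or 3 and 6 with signals as deposited. The 9 rises among spliceosome genes became 3 with signals as deposited and 1 without a variance trend. The 7 falls became 2 without control replicate 1, 3 without control replicate 2, 4 without control replicate 3, 2 with signals as deposited and 3 without a variance trend. The 18 rises among chromatin regulators became 9 without Crx-/- replicate 1 or control replicate 1 or 3, 8 with signals as deposited and 8 without a variance trend. The 13 falls became 8 with signals as deposited.

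The circadian clock was shifted in 15 of 23 genes, 10 higher and 5 lower (median 0.31). Genes of the repressing arm and of D-box activation rose. Per3 read 12.33, 11.99 and 12.37 on the Crx-/- arrays, against 11.16, 11.10 and 10.56 on the control arrays (1.29 ± 0.16, adjusted p = 0.000568), Dbp 12.41, 12.19 and 12.26 on the Crx-/- arrays, against 11.38, 11.27 and 11.13 on the control arrays (1.03 ± 0.09, adjusted p = 6.64e-05), and Nr1d1, Hlf, Per1 and Tef changed by 0.94, 0.85, 0.65 and 0.43 (Tef -0.0020 with its probe sets averaged). Bhlhe40, a repressor of clock targets, read 11.76, 11.80 and 11.20 on the Crx-/- arrays, against 10.46, 10.39 and 10.69 on the control arrays (1.07 ± 0.16, adjusted p = 0.00129). Among those that fell, Arntl, the partner of Clock, changed by -0.64 ± 0.09, adjusted p = 0.00138, the D-box repressor Nfil3 by -0.83 ± 0.11, adjusted p = 0.00089, and the Arntl activators Rora and Rorb by -0.47 and -0.57. Csnk1d did not pass (0.19 ± 0.10, adjusted p = 0.208). The hour of killing was the same label for both groups; how exact it was is not given in the sources used here. The 10 rises among clock genes became 6 without a variance trend. The 5 falls became 3 with signals as deposited. Per1 lost its call without Crx-/- replicate 1 or control replicate 1 (adjusted p up to 0.0539).

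Counts of immune genes depended on single arrays of both groups. Of 66 interferon response genes 13 rose and 2 fell. The 13 rises among interferon genes became 8 without control replicate 1 or 2, 27 without control replicate 3 and 8 without a variance trend. Gbp2 read 9.98, 10.07 and 9.77 on the Crx-/- arrays, against 8.58, 8.36 and 9.36 on the control arrays (1.18 ± 0.23, adjusted p = 0.00615), and Ifitm1 read 11.32, 10.61 and 11.33 on the Crx-/- arrays, against 9.77, 9.80 and 9.90 on the control arrays (1.26 ± 0.18, adjusted p = 0.00106). Of 15 complement genes 5 rose and 1 fell, among them C2 (1.45 ± 0.15, adjusted p = 0.000228) and the inhibitor Serping1 (1.20 ± 0.12, adjusted p = 0.000152). Microglia and macrophage markers rose in 9 of 17 and fell in 1, Cd68 (-0.94); Tmem119 read 8.91, 8.86 and 8.48 on the Crx-/- arrays, against 7.19, 7.45 and 7.55 on the control arrays (1.35 ± 0.17, adjusted p = 0.000699), and the summed signal was 22273 to 23853 on Crx-/- arrays, against 13081 to 21760 on control arrays. Of these markers 13 rose without control replicate 3. The 9 rises among microglia and macrophage markers became 5 without a variance trend. Of 33 antigen presentation genes 1 rose, Tapbp (0.26 ± 0.06, adjusted p = 0.0158), which read -0.056 when its probe sets were averaged and lost its call without Crx-/- replicate 1 or control replicate 1 or 2 (adjusted p up to 0.0833). Control replicate 3 read at least 1 log2 unit above both its mates in 7 of 27 of these genes (25.9%), and without it 5 rose. Of 108 chemokine and cytokine receptor genes 16 rose (14.8%) and 5 fell (4.63%), against 16.3% and 12.3% of all genes. Control replicate 3 read at least 1 log2 unit above both its mates in 20 of 84 of these genes above background (23.8%). Crx-/- replicate 2 did so in 7 of 84 of them and in 5 of 59 interferon genes. Its share of all genes above background was 0.359%. The part of immune cells in these results was not tested. The 16 rises among chemokine and cytokine receptor genes became 10 without Crx-/- replicate 1. The 5 falls became 2 without Crx-/- replicate 1 or 3 or control replicate 1, 3 without control replicate 3 and 1 with signals as deposited.

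Night arrays gave a second look at the same genotype. At ZT20 with all 6 arrays no gene passed in limma (0.0%), though 3501 of 18193 (19.2%) had an unadjusted p under 0.05. That count rested on a single array: without the one labelled control ZT20 replicate 3, 2207 genes (12.1%) rose and 1905 (10.5%) fell. Of the 2972 genes that rose at ZT6, 1541 (51.9%) rose at ZT20 too without that array and 2751 (92.6%) had the same sign; of the 2236 that fell, 1133 (50.7%) fell too and 2005 (89.7%) had the same sign. With all arrays the shares of the same sign were 92.8% and 88.3%. The share of the same sign over all 18193 genes was not taken, so these shares stand without a base rate. The ZT20 values that follow leave that array out. Phototransduction genes fell in 15 of 33 at ZT20, 14 of them among the 16 of ZT6. Hoxc4 changed by 7.19 at ZT20 against 5.26 at ZT6, Glra1 by 5.72 against 5.43, Gabrd by -4.42 against -5.63 and Aanat by -1.87 against -1.81. Collagen genes rose in 16 of 42 at ZT20, with a median of 0.57 against 1.02 at ZT6, and clock genes rose in 3 of 23 and fell in 1, with a median of -0.01 against 0.31. With all 6 arrays none of these genes passed at ZT20, and the list medians were -0.37 for phototransduction, 0.44 for collagens and 0.03 for the clock.

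**Figure D5:**
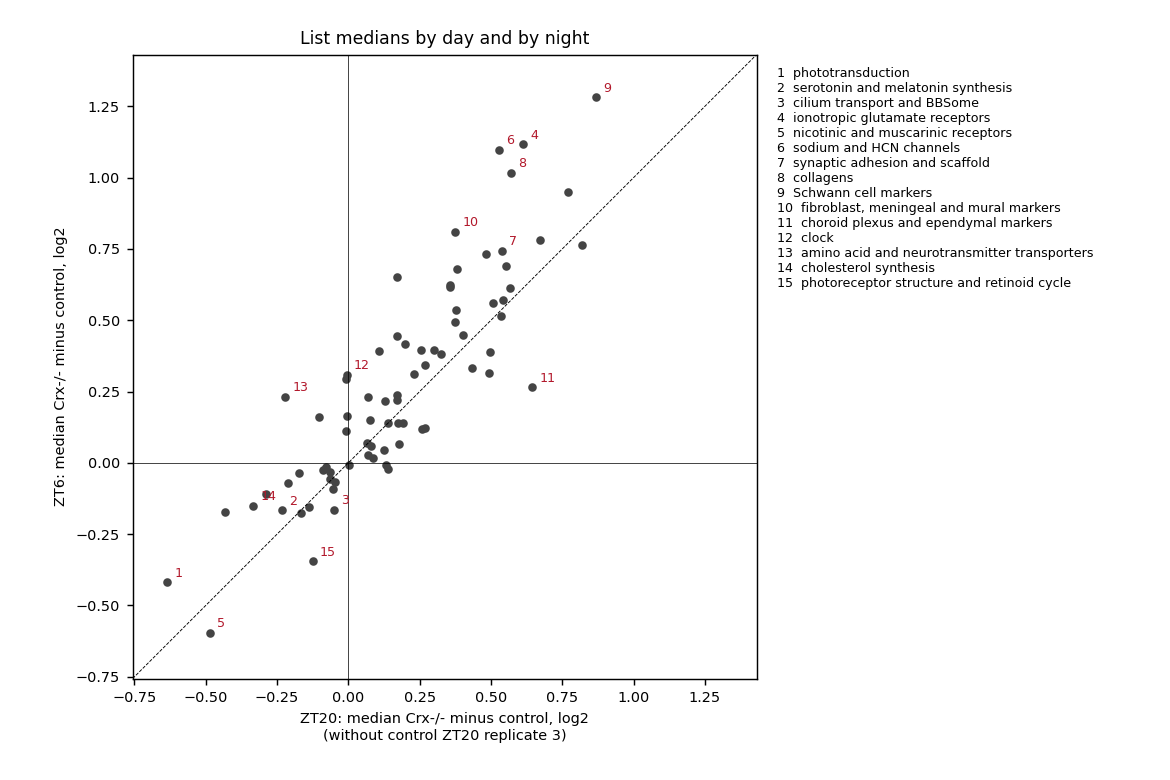
Median change (Crx-/- minus control, log2) of 77 gene lists at ZT6 (vertical axis) against ZT20 without the array labelled control ZT20 replicate 3 (horizontal axis); the dashed line marks equal values, 15 lists are numbered, and the list of genes that differ by sex, with 4 members and none called, is left out. Most lists lie where both medians are above 0, the clock list has a median of 0.31 at ZT6 and -0.01 at ZT20, and phototransduction lies below 0 at both times.

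The difference between the day and night change was tested as an interaction. With all 12 arrays it passed for 5 genes (0.0275%). When that control ZT20 array was left out it passed for 434 (2.39%), 290 with a change more positive at ZT6 and 144 with one more negative. Cckbr changed by 5.04 at ZT6 and by 0.41 at ZT20 without that array, and the interaction test in limma gave a difference of 4.56 ± 0.76 (adjusted p = 0.0102). That test normalized its arrays together, whereas the changes come from each time normalized apart, so the values need not subtract exactly. Rbfox1 differed by 2.19 ± 0.28 (adjusted p = 0.00165), Lrit1 by -2.07 ± 0.18 (adjusted p = 0.000152) and Dbp by 1.06 ± 0.20 (adjusted p = 0.02). For none of these 4 did the test pass with all 12 arrays.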

How the data were processed

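Pineal glands were profiled on 12 Affymetrix mouse genome arrays, 3 for each genotype and time, from amplified total RNA. The deposited values are signal intensity per probe set, made by the authors with GCOS per the submitters' processing notes; the version and any scaling are not given in the sources used here. All 45101 probe sets of the 6 ZT6 arrays were quantile normalized, 3.7 (the 10th percentile of the signals) was added and log2 was taken. The 64 array control features were then left out, and limma 3.58.1 in R 4.3.3 (lmFit, eBayes with a trend) compared Crx-/- with control over 45037 probe sets with no filter on low values, with Benjamini-Hochberg adjustment and a threshold of 0.05. The script was tested on simulated data. The number of arrays limits the precision. No 2 arrays held identical values.

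Probe sets were named from the platform annotation, which can be old: 34945 had 1 gene symbol, 932 several and 9160 none, and 34741 matched a RefSeq gene by gene ID (GRCm38.p6). Of several probe sets the one with the highest mean over the 6 ZT6 arrays stood for its gene, giving 18193 genes. The genes and the 78 gene lists were chosen with earlier results of these data known. Named were the 6 genes of largest change in each direction and, per list, up to 4 called members of largest change whose arrays do not overlap and whose brighter group lay above background, plus the brightest member that did not pass and a few set genes. Further genes were named after their values were seen: those with a printed promoter site, those that complete a count or a pathway (among them Opn3, Chrna3, Glrb, Ldha, Arntl, Per1 and Cd68), those with an interaction and those under the closing observations. Replicate numbers did not pair the arrays: the deviations of same-numbered arrays correlated at -0.16 to -0.05. The 5' to 3' ratios were compared with an exact permutation test. Alternatives were other scalings, offsets, variance models and gene summaries, a filter on dim probe sets, the replicate block, the fit over 12 or 11 arrays, and leaving out each array.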

Additional observations from a re-analysis of the deposited data

Results flagged for a closer look

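For 31 named genes the change with genotype differed between ZT6 and ZT20 by the interaction test in limma, given here as the ZT6 change minus the ZT20 change on the log2 scale. With all 12 arrays the difference passed for Rprm at 3.11, Cpz at 1.98 and Sphk2 at 1.61, and for Mfsd4b2 at -3.67 and Alpk2 at -3.62.

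The other 26 passed only without the array labelled control ZT20 replicate 3. Of transmitter, guidance and synapse genes, the difference was 4.56 for Cckbr, 1.44 for Chrna6, 1.25 for Mpp3, -0.528 for Sema3c, -1.63 for Nrxn3 and -3.56 for Cdh9. It was 1.4 for the transducin subunit Gngt1, 1.09 for the channel subunit Cngb3 and -2.07 for Lrit1. Of clock genes it was 1.06 for Dbp, 1.14 for Per1 and -0.708 for Arntl. Of transcription factors, RNA-binding and chromatin genes it was 0.935 for Neurod2, 1.16 for Mycn, -1.19 for Prrxl1, 2.19 for Rbfox1 and 1.54 for Kdm4d. Among matrix and growth factor genes it was 1.17 for Col3a1, 1.05 for Lox, 1.42 for Gdf10 and -0.799 for Gfra1. The remaining differences were 1.57 for the neurofilament Nefh, 1.78 for the phosphatase Dusp26, 0.938 for Pmvk, 0.988 for the water channel Aqp1 and -1.27 for the kinase Cdk6.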

How the results depend on the processing

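At ZT6 2972 genes were called higher and 2236 lower. Lower calls numbered 1055 with signals as deposited and 1377 with all 12 arrays in the fit; without a variance trend 1918 were higher and 1389 lower. Calls were 57.1% higher, against 66.0% with signals as deposited and 48.6% with probe sets averaged. Leaving out 1 array gave 2004 to 2807 higher and 1528 to 2033 lower. At ZT20 no gene passed except without control replicate 3 (2207 higher, 1905 lower), so that leaving out 1 array gave 0 to 2207 and 0 to 1905. The interaction gave 3 and 2 genes, and 0 to 290 and 0 to 144 when 1 array was left out. With the replicate block 2454 genes were higher and 1762 lower at ZT6, 0 and 0 at ZT20, and 1 and 0 for the interaction. Averaging the probe sets of a gene reversed Dhh (-0.010), Lhx4 (-0.26), Neurod4 (-0.20), Tapbp (-0.056) and Tef (-0.0020); the cause was not tested. Of 424 named genes, 34 lost their call with signals as deposited, 54 without a trend, 10 with the replicate block and 21 to 43 when 1 array was left out; none of these reversed. Vsnl1 lost its call in several settings, among them without a trend (adjusted p = 0.123). The number of arrays, and signals at background for dim genes, limit the precision.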

Other observations

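Of the 5208 genes called at ZT6, 4046 were in none of the 78 lists. A few, chosen after their values were seen, show large changes in other functions. Cga, the common subunit of the pituitary glycoprotein hormones, read 12.86, 12.76 and 12.97 on the Crx-/- arrays, against 10.17, 9.95 and 9.81 on the control arrays (2.89 ± 0.10, adjusted p = 7.34e-07 in limma). Kcnip4, a partner of potassium channels, changed by 4.05 ± 0.11, the membrane lectin Chodl by 4.14 ± 0.14 and the scaffold Mpp3 by 3.90 ± 0.08. Every Crx-/- array lay above every control array in these genes, and the groups did not overlap in 44.6% of all genes.

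Gpnmb, a glycoprotein of melanosomes, read 7.55, 7.28 and 7.59 on the Crx-/- arrays, against 11.24, 11.38 and 11.81 on the control arrays (-4.00 ± 0.16, adjusted p = 1.24e-06 in limma). The melanocortin receptor Mc1r was at least 13.4-fold lower, its Crx-/- arrays lying at or near background. Sall4, a factor of embryonic stem cells, read 6.86, 6.97 and 6.59 on the Crx-/- arrays, against 10.75, 10.93 and 10.64 on the control arrays (-3.97 ± 0.14). Mycn changed by -3.68 ± 0.14, the vesicle protein Syngr3 by -4.48 ± 0.25 and Papss2, which makes the sulfate donor of the cell, by -3.29 ± 0.11. In none of these 6 genes did the groups overlap, as in 44.6% of all genes.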
